A study of Mus musculus with 2 samples.

Results

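The subject is 7 genes of the muscle cell's filament scaffold: the intermediate filament genes Des (desmin), Vim (vimentin), Synm (synemin) and Nes (nestin), the filamin genes Flna and Flnc, and Vcl (vinculin). Every probe set whose only gene symbol in the platform annotation is one of these genes was taken, which gave 15 of the 45101 probe sets in the table. A probe set is a group of array probes that reads 1 stretch of transcript. The rule uses gene symbols and no signal, though the 7 genes were picked with earlier results of these data known. The tissue was fetal mouse esophagus at E18.5, shortly before birth. There were 2 arrays. The first carries RNA labelled as null for both Myf5 and Myod, whose proteins direct cells to the skeletal muscle fate, on a BALB/c background, and the second carries wild-type BALB/c RNA. The sources used here do not give the number of embryos behind each RNA sample. With 1 array per genotype there is no replicate, so every difference is between 2 RNA samples, no test could be made. By its title, the series is about striated muscle taking the place of smooth muscle in this organ.

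Intermediate filaments are ropelike polymers that give cells mechanical strength. In striated muscle desmin filaments tie neighbouring Z-discs, the anchoring planes of the contractile units, to each other and to the cell membrane, and smooth muscle makes desmin too. Vimentin and nestin are the filament proteins of immature cells: both are present in developing muscle, vimentin also in fibroblasts, endothelium and smooth muscle, and nestin also in neural progenitors and glia. Filamins cross-link actin filaments, with filamin A made by most cells and filamin C largely by striated muscle. Vinculin links actin to adhesion sites, including the costameres that couple the contractile units to the membrane.

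The array labelled null differed from the wild-type array in opposite ways among these 7 genes. By the brightest probe set of each gene, Des was 2.80-fold lower, Vim 2.56-fold and Flnc 2.32-fold. Vcl was 1.58-fold higher and Synm 1.37-fold. Nes was 1.14-fold lower, and Flna differed by 1.05-fold, with a sign that turned when the ratios were centred. Taken over probe sets, 13 of the 15 were measured, meaning that at least 1 of the 2 signals reached a low-signal limit of 489, the median of all probe sets of both arrays that are not array controls. Of these 13, 7 were at least 2-fold lower on the null-labelled array and 0 were higher by that much, against 4.40% and 6.83% of all 26692 measured probe sets. The median log2 ratio (null-labelled over wild-type) of the 13 was -1.20, against 0.15 for all measured probe sets. These 13 are not independent, since 3 read Vim and 2 each read Des, Synm, Nes and Flnc. Counted by gene, 3 of 7 were at least 2-fold lower and 0 higher, against 5.36% and 6.01% of 13315 measured genes, and the median log2 ratio of the 7 was -0.19, against 0.09 for all measured genes. The balance of all genes turned with the scaling, at 7.16% lower and 3.43% higher with loess on signal and 6.13% and 4.16% with quantile normalization.

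**Figure D1:**
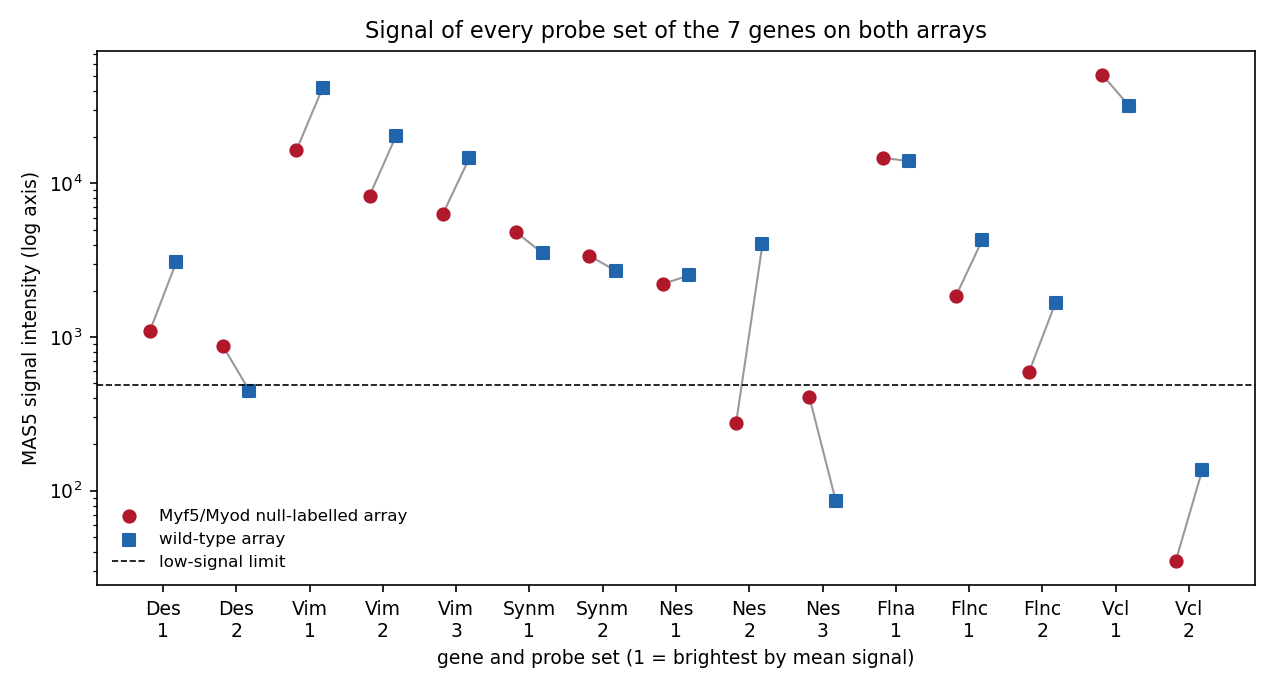
MAS5 signal intensity (log axis) of each of the 15 probe sets on the null-labelled array (red circles) and the wild-type array (blue squares), 1 array each, with the low-signal limit of 489 dashed. The 3 Vim and the 2 Flnc probe sets are lower on the null-labelled array, the 2 Synm probe sets slightly higher, and the Des and Nes probe sets do not move together.

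The only error these 2 arrays offer is how far the probe sets of the same gene differ in log2 ratio. That spread had a pooled SD of 0.56 over 14307 measured probe sets of 5455 genes, and variation between animals is not part of it. By the brightest probe set, the log2 ratios of Des (-1.49), Vim (-1.36), Flnc (-1.21) and Vcl (0.66) were larger in size than this SD. Those of Synm (0.45), Nes (-0.19) and Flna (0.08) were smaller. Of all measured genes, 2.25% had a lower log2 ratio than Des, 2.77% than Vim, 3.57% than Flnc and 84.3% than Vcl. When the ratios were centred, Vcl was at 0.57, close to this SD, so its ratio is not set apart from the other genes. With the median over a gene's measured probe sets, Des was at -0.33 and Nes at -1.61, so both changed sides. The probe sets of Des and of Nes differ by far more than this SD.

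Vim gave the most uniform result of the genes that read lower. Its brightest probe set had a signal of 16428 on the null-labelled array, against 42082 on the wild-type array. The second read 8337 on the null-labelled array, against 20371 on the wild-type array. The third read 6342 on the null-labelled array, against 14608 on the wild-type array. All 3 were thus lower on the null-labelled array, by 2.56-fold, 2.44-fold and 2.30-fold. Their log2 ratios lay within 0.15 of each other, a narrower range than that of most genes with several measured probe sets, of which 11.3% had a smaller one. The first and second Vim probe sets were designed from the same sequence record, so they are not separate views of the transcript.

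Des, the muscle desmin gene, was split between its 2 probe sets, which were designed from the same sequence record. The brighter one read 1094 on the null-labelled array, against 3066 on the wild-type array, a log2 ratio of -1.49. The other read 870 on the null-labelled array, against 447 on the wild-type array. This wild-type signal lies below the limit, so the null-labelled signal of the second probe set was at least 1.78-fold higher. The 2 log2 ratios differed by 2.32, more than in 98.0% of the genes with several measured probe sets. A lower desmin signal on the null-labelled array therefore rests on 1 of its 2 probe sets.

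Nes, which encodes nestin, was split as widely. Its brightest probe set read 2216 on the null-labelled array, against 2524 on the wild-type array. The second read 275 on the null-labelled array, against 4007 on the wild-type array, at least 8.19-fold lower. The third, at 407 on the null-labelled array and 86.3 on the wild-type array, was below the limit on both and counts as not measured. The brighter pair had log2 ratios 2.85 apart, more than in 99.4% of the genes with several measured probe sets. The gene's value in the counts above is that of the brightest probe set, and the probe set with the largest difference among the 15 is its second.

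Synm encodes synemin, a large filament protein that joins desmin and vimentin filaments to membrane complexes. Its brighter probe set read 4813 on the null-labelled array, against 3512 on the wild-type array. The other read 3386 on the null-labelled array, against 2695 on the wild-type array. Both were slightly higher on the null-labelled array, by 1.37-fold and 1.26-fold, and both log2 ratios are smaller than the pooled SD between probe sets.

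The filamin genes differed from each other. Flnc read 1848 on the null-labelled array, against 4286 on the wild-type array, at its brighter probe set. At the other it read 595 on the null-labelled array, against 1679 on the wild-type array. Both probe sets were lower on the null-labelled array, by 2.32-fold and 2.82-fold. The only Flna probe set read 14704 on the null-labelled array, against 13949 on the wild-type array. Its log2 ratio of 0.08 turned to -0.01 when the ratios were centred on the median of all genes, so no direction is given for it. Flna lies on the X chromosome, and the RNA samples differed in sex-linked transcripts. Xist, the RNA made from the inactive X, read 24254 on the null-labelled and 42465 on the wild-type array. The Y-linked genes Eif2s3y and Kdm5d read 2402 and 1159 on the null-labelled array, against 10.6 and 160 on the wild-type array, while Uty was below the limit on both arrays at its brightest probe set (422 on the null-labelled and 251 on the wild-type array). Its second probe set read 563 on the null-labelled array, against 24.8 on the wild-type array. The part of sex in the Flna value was not tested.

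Vcl read 50737 on the null-labelled array, against 32118 on the wild-type array, at its brighter probe set, 1.58-fold higher. Its other probe set read 34.9 on the null-labelled array and 136 on the wild-type array, below the limit on both, and counts as not measured. The higher vinculin signal therefore rests on 1 probe set.

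**Figure D2:**
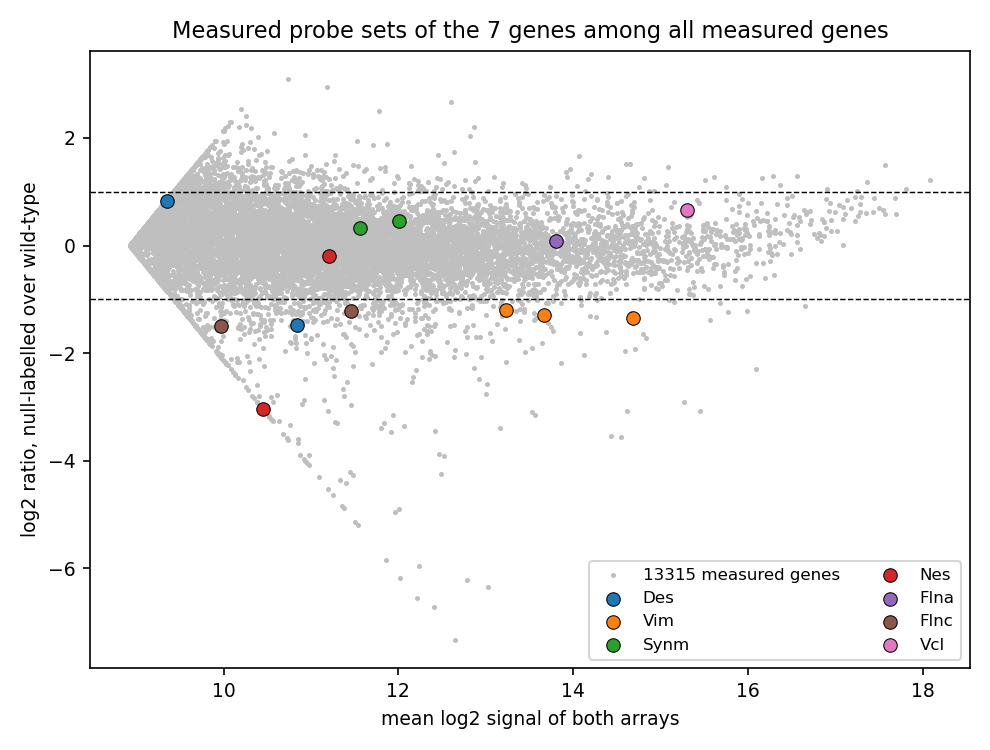
Log2 ratio (null-labelled over wild-type) against the mean log2 signal of both arrays, with signals below the limit raised to it. Grey points are the 13315 measured genes at their brightest probe set, coloured points the 13 measured probe sets of the 7 genes, and dashed lines mark a 2-fold difference. The Vim and Flnc probe sets and 1 each of Des and Nes lie below the lower line, and no probe set of the 7 genes lies above the upper line.

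The size of the differences varied with the probe set read, and control probe sets read both ends of some transcripts. The ratio of signal from the 3' end to that from the 5' end of the beta-actin control was 14.2 on the null-labelled and 12.6 on the wild-type array, and that of the Gapdh control 6.96 and 10.5 in the same order of arrays. In 9 of 9 pairs of probe sets for bacterial transcripts added to the RNA, the log2 ratio was higher at the 3' than at the 5' end, by a median of 0.83 (0.54 to 1.20). These 9 pairs are not independent, since some of the transcripts are read by more than 1 pair. The sources used here do not say where the probe sets of Des and Nes lie along their transcripts. The part of differences between transcript ends in their disagreement was not tested. Myf5 read 496 on the null-labelled array, against 4072 on the wild-type array. Myod1 read 1698 on the null-labelled array, against 2001 on the wild-type array, at its brighter probe set. The sources used here do not say whether the Myf5 and Myod1 probe sets lie in the deleted parts of these genes, which is why the array is called null-labelled.

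Letters of the promoters were set beside the members that read lower and the vinculin gene that read higher, by the brightest probe set. RefSeq windows of 300 bases on GRCm38.p6 (250 before to 50 after the annotated start) were found for all 7 genes, with 2 windows for Flnc. These are C57BL/6J reference sequence, not that of the BALB/c animals. The windows of Des and Flnc are shown because both genes are made by striated muscle and read lower at the brightest probe set. For Des the other probe set read higher. That of Vcl is shown because it holds a CArG box, the letters bound by serum response factor, a regulator of muscle actin and adhesion genes. In the Des window (chr1:75360042-75360341, plus strand) capitals mark the E-box CANNTG, the letters that MyoD family factors bind. In the Flnc window (chr6:29432903-29433202, plus strand) neither motif was found, and nothing is in capitals. In the Vcl window (chr14:20929148-20929447, plus strand) capitals mark the CArG box.
Des: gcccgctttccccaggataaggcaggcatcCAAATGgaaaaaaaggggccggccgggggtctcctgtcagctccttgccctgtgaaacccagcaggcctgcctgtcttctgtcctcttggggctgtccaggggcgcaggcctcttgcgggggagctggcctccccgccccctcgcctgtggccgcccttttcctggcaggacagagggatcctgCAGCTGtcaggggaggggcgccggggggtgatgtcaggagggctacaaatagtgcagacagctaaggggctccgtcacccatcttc
Flnc: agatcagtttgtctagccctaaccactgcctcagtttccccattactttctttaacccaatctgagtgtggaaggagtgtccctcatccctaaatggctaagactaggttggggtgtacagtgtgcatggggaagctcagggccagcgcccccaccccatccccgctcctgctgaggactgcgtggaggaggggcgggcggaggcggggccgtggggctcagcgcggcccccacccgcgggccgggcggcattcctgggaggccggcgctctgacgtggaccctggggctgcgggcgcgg
Vcl: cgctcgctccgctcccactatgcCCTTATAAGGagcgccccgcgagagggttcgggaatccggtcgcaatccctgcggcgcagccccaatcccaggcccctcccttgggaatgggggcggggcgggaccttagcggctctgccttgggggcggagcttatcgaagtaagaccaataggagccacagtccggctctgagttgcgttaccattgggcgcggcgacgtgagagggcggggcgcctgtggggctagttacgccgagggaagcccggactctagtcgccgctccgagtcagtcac
The E-box and CAGCTG, 1 of its forms, read the same on both strands, as does the pattern of the CArG box. The Des window held 2 E-boxes, at -220 and at -36 from the start, the second of them in the form CAGCTG. At least 1 CANNTG was in 72.3% of all 32851 promoter windows and CAGCTG in 16.3%. Of the other members, Synm alone had an E-box in its window, with 1 at -193 in the form CACGTG, and Vim, Nes, Flna and both Flnc windows had none. The Vcl CArG box lay at -227 and did not overlap an E-box. A CArG box was in 1.63% of all windows, and Vcl was the only one of the 7 genes with one. A match describes the letters of a window only, and binding was not measured here.

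Partners of these proteins were described from lists of genes that bind or extend the same structures. Of 13 measured genes for filament linkers and filamin partners, 3 were at least 2-fold lower and 0 higher on the null-labelled array. Over all measured genes these shares were 5.36% and 6.01%. The median log2 ratio of the list was -0.55, against 0.09 for all measured genes. Myot, which encodes the filamin C partner myotilin of the Z-disc, read 304 on the null-labelled array, against 8318 on the wild-type array, at least 17.0-fold lower. Ldb3, another Z-disc gene, read 1325 on the null-labelled array, against 11710 on the wild-type array, and its dimmer probe sets also had log2 ratios below 0, at -0.64 and -1.84. Cryab, the small heat shock protein that protects desmin filaments, read 8132 on the null-labelled array, against 22001 on the wild-type array, while its second probe set had a log2 ratio of -0.05. Plec, which encodes the linker plectin, read 7937 on the null-labelled array, against 14904 on the wild-type array. The 2 Z-disc genes thus had the largest differences of the list, and plectin and the heat shock gene smaller ones.

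Of 10 measured genes for other intermediate filament proteins outside the keratins, 2 were at least 2-fold lower and 1 higher. Over all measured genes these shares were 5.36% and 6.01%. The median log2 ratio of the list was -0.10. Lmnb2, a nuclear lamin gene, read 363 on the null-labelled array, against 1659 on the wild-type array, at least 3.39-fold lower. Nefl, the light neurofilament gene, read 1207 on the null-labelled array, against 2918 on the wild-type array. Sync, which encodes the desmin partner syncoilin of striated muscle, read 1007 on the null-labelled array, against 418 on the wild-type array, at least 2.06-fold higher, while the dimmer of its probe sets had a log2 ratio of -0.04. Bfsp2, a lens filament gene, read 973 on the null-labelled array, against 382 on the wild-type array, at least 1.99-fold higher.

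Of 19 measured genes for adhesion partners of vinculin, 1 (5.26%) was at least 2-fold lower and 0 higher, against 5.36% and 6.01% of all measured genes. The lower share was thus near that of all genes. The median log2 ratio of the list was 0.09. The lower gene was Ilk, the integrin-linked kinase of adhesion sites, at 3343 on the null-labelled array and 6813 on the wild-type array. Sorbs3, which encodes the vinculin-binding protein vinexin, read 1097 on the null-labelled array, against 551 on the wild-type array, 1.99-fold higher. Actn4, a nonmuscle alpha-actinin gene, was 1.75-fold lower, and Ctnnb1, which encodes beta-catenin of cell junctions, 1.65-fold higher. The genes of this list went both ways, 8 with a log2 ratio below 0 and 11 above.

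Markers of the cell types that hold these filaments moved in different ways. Over all measured genes 5.36% were at least 2-fold lower on the null-labelled array and 6.01% higher. In whole tissue, fewer cells of a type and less RNA per cell cannot be told apart. Of 13 striated muscle markers 13 were at least 2-fold lower on the null-labelled array, with a median log2 ratio of -5.85 and a summed signal of 9871, against 436197 on the wild-type array. Myh3, the embryonic myosin heavy chain, read 507 and skeletal alpha-actin Acta1 read 816 on the null-labelled array, against 81678 and 60683 on the wild-type array. By brightest probe sets, the log2 ratios of Des (-1.49), Flnc (-1.21) and Vim (-1.36) were smaller in size than that of any marker in this list. The smallest of the markers was Ckm, at -2.32. Dimmer probe sets of the markers also disagreed: that of Ckm had a log2 ratio of 0.25, and those of Ttn had -5.47, -1.87 and -1.85. Of 10 smooth muscle markers 3 were at least 2-fold higher and 0 lower, with a median of 0.68 and a summed signal of 683894 on the null-labelled and 342064 on the wild-type array. Mylk (326483 on the null-labelled and 115515 on the wild-type array) and Acta2 (242976 and 131127 on the same arrays) were the brightest of them and made up most of both sums. Lmod1, among the 3 higher genes, is a bound, with a wild-type signal of 419. Dimmer probe sets disagreed in part, with log2 ratios of 0.08 and 1.86 for Mylk and -1.39 and 0.43 for Synpo2. Those of Acta2 and Myh11 were at 0.60 and 0.85. Of the 10, 8 had a log2 ratio above 0 and 2 below: Cnn1, the smooth muscle calponin, read 6385 on the null-labelled array, against 10808 on the wild-type array, and Tagln, which encodes transgelin, read 19059 on the null-labelled array, against 26359 on the wild-type array.

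Fibroblast markers, of a cell type that makes vimentin, had a median log2 ratio of 0.18 over 10 genes, with 6 log2 ratios above 0 and 4 below. Of these genes 1 was at least 2-fold lower and 0 higher, against 5.36% and 6.01% of all measured genes. In lists this short, 1 such gene is not read as a result about the list. The gene at least 2-fold lower was Postn, which encodes the matrix protein periostin, at 6345 on the null-labelled array and 14666 on the wild-type array. Col3a1 read 175150 on the null-labelled array, against 103465 on the wild-type array, and Col1a2 read 129978 on the null-labelled array, against 84443 on the wild-type array. The summed signal of the list, most of it from collagen genes, was 465632 on the null-labelled and 337210 on the wild-type array. Of 6 measured endothelial markers 1 was higher and 0 lower (median 0.22), with a summed signal of 7716 on the null-labelled and 7637 on the wild-type array, and Pecam1 and Tie1 were below the limit on both. The higher count was 0 under a limit at the 75th percentile and with quantile or loess scaling. The median was -0.01 with quantile scaling, -0.02 with loess and -0.27 under a limit at the 25th percentile, so no direction is given for this list. Kdr (1415 on the null-labelled and 2159 on the wild-type array) and Tek (1563 and 1490 on the same arrays) were the brightest.

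Of 6 glia and neural crest markers, of cells that can make nestin, 1 was at least 2-fold higher and 0 lower, against 6.01% and 5.36% of all measured genes. Here too 1 gene of a short list is not read as a result about the list. The median was 0.11, with a summed signal of 58201 on the null-labelled and 43995 on the wild-type array. With loess the median was -0.03, and with the limit at the 75th percentile it was -0.12. Ednrb read 42384 on the null-labelled array, against 21004 on the wild-type array, and Erbb3 read 11224 on the null-labelled array, against 18562 on the wild-type array. Ednrb weighed most in both sums, and the list held 3 log2 ratios below 0 and 3 above. The higher sum thus rests on Ednrb and gives no direction for the list. Of 8 squamous epithelium markers, of the layer that lines the esophagus, 1 was lower and 0 higher (median -0.14), with a summed signal of 529433 on the null-labelled and 444953 on the wild-type array, and the median was 0.03 with the median over each gene's measured probe sets. The keratin gene Krt4 (259124 on the null-labelled and 173385 on the wild-type array) and the desmosome gene Dsp (74083 and 80250 on the same arrays) were the brightest. Krt4 weighed most in both sums, while 5 of the 8 log2 ratios were below 0 and 3 above. The dimmer Krt4 probe set went the other way, at 71386 on the null-labelled and 84833 on the wild-type array. The higher sum is thus not read as a direction for the list. The part of cell-type makeup in the values of Vim, Nes and Des was not tested.

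**Figure D3:**
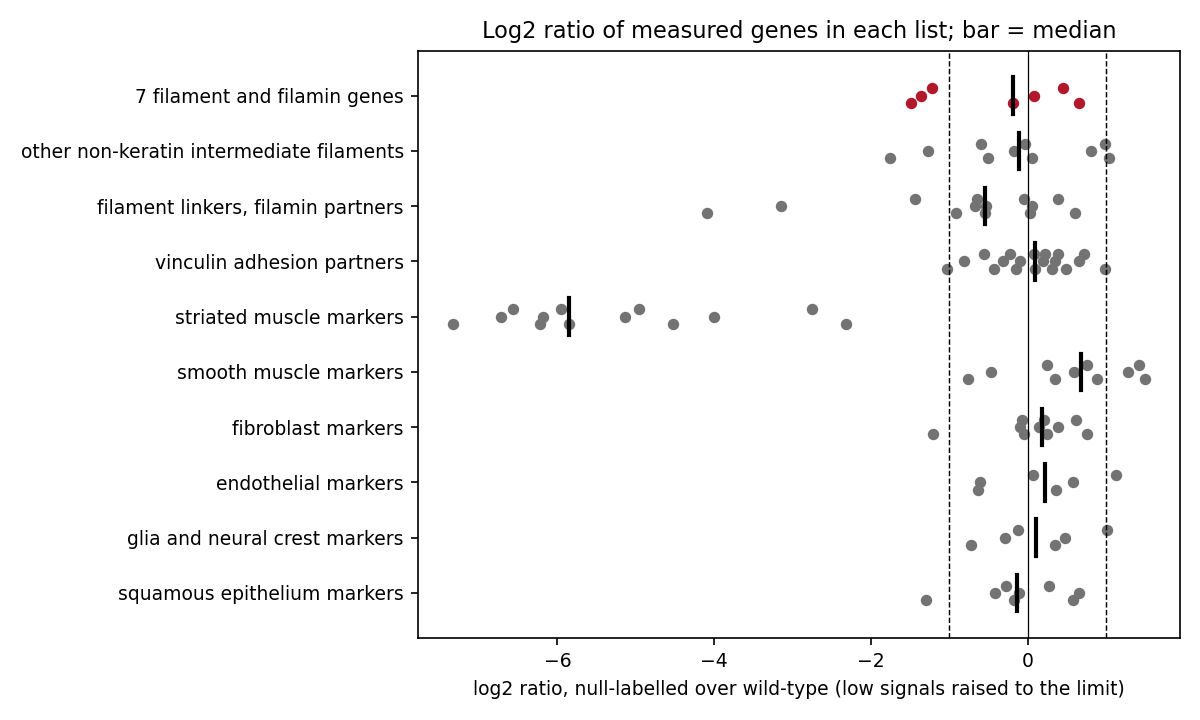
Log2 ratio (null-labelled over wild-type) for each measured gene (points, brightest probe set) of the 7 filament and filamin genes (red), of their partners and of cell type markers (grey), with bars at the medians and dashed lines at a 2-fold difference. The 7 genes spread from -1.49 (Des) to 0.66 (Vcl), while the striated muscle markers lie between -7.33 and -2.32.

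The genes whose pair of signals lay nearest to that of each member were found by distance in log2 signal over the 2 arrays. Stip1 and Mrpl58 lay nearest to Des (distances 0.052 and 0.065), Upk1b and Cdkn1c to Vim (0.080 and 0.27), and Tmc7 and Cwh43 to Flnc (0.060 and 0.076). Tmem51 and Mrpl48 lay nearest to Synm, Usp19 and Arpc4 to Nes, Idh1 and Slc44a1 to Flna, and Rps19 and Marveld1 to Vcl, at distances of 0.0086 to 0.088. With 2 arrays this measure says only that the signals were close on each array, and a probe set's signal also depends on its probes.

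**Figure D4:**
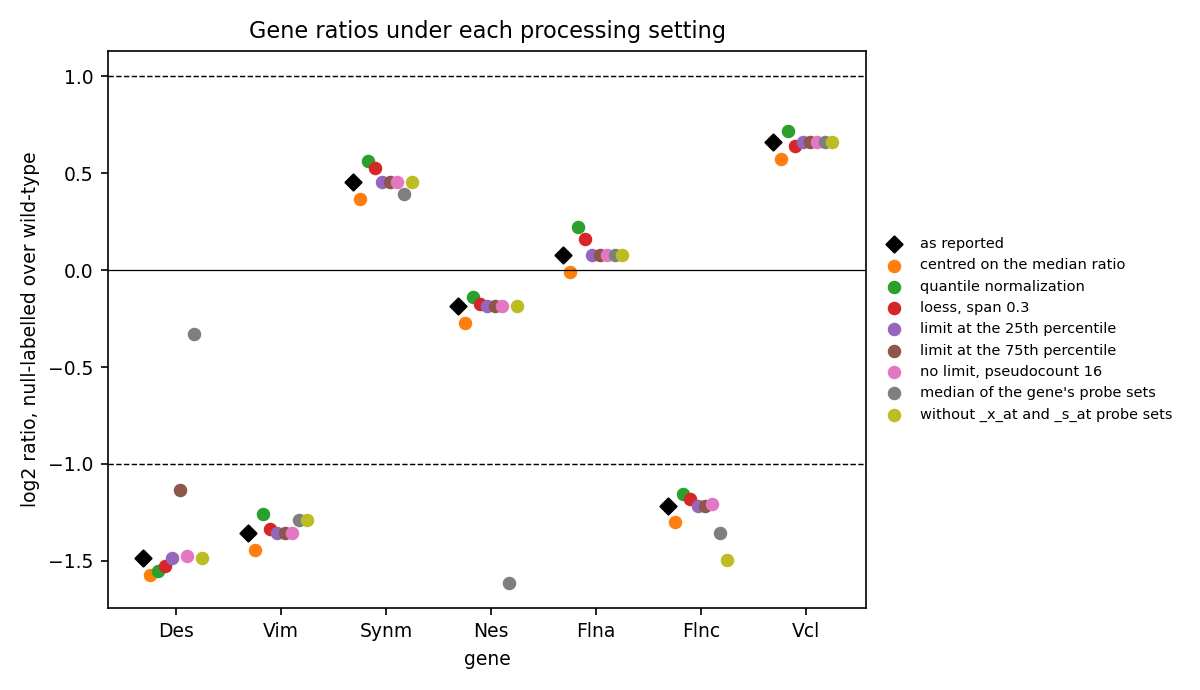
Log2 ratio (null-labelled over wild-type) for each of the 7 genes as reported (black diamonds) and under 8 other processing settings (coloured circles), with dashed lines at a 2-fold difference. Vim and Flnc stay below -1 in every setting shown, Synm and Vcl between 0 and 1, and Des and Nes move across -1 when the median over a gene's measured probe sets is taken.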

How the data were processed

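Each array held biotin-labelled cRNA made from 6 µg of total RNA, per the labels' protocols. The authors deposited linear signal intensities from MAS5, as named in the submitters' processing notes. This Affymetrix method summarises each probe set as 1 signal and brings arrays to a shared mean. The sources used here give neither its version nor its settings. With the top and bottom 2% of probe sets left out, the mean intensity was 1500.01 on both arrays. The table holds no detection calls.

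Gene names came from the platform annotation, updated by Entrez ID through RefSeq's GRCm38.p6 table, which matched 34741 of 34945 probe sets with 1 symbol. The 64 control probe sets, 932 with several symbols and 9160 unnamed here were left out of gene counts. The probe set with the highest mean signal stood for a gene. Signals under the limit (489, the 50th percentile) were raised to it before log2 ratios were taken, so a ratio with 1 signal below it is written "at least". The limit replaces detection calls, and no background was measured. On the null-labelled array 55.4% of probe sets, and on the wild-type array 44.6%, had a signal of 489 or more. Precision is limited by the number of arrays.

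The members, lists and motifs were chosen with earlier results of these data known. Named were all members, up to 4 measured genes of each partner list with the largest ratio, the 2 brightest of each marker list, sex-linked genes, and the 2 nearest genes of each member. Pecam1, Tie1, Ckm, Ttn, Cnn1, Tagln, Lmod1, Synpo2, Myh11 and Postn were named after their values were seen, and so were Myf5 and Myod1, the CArG box and the Vcl window. Alternatives were 3 scalings (centring, quantile, loess with span 0.3), limits at the 25th and 75th percentiles, no limit but a pseudocount of 16, the median over a gene's measured probe sets, dropping IDs that end in _x_at or _s_at, and a 4-fold threshold. The ratio step was tested on simulated data in which only genes well above the limit were shifted, so bounds were not tested there. Python 3.11.15 with numpy 2.4.6, pandas 2.3.3, statsmodels 0.14.6 and matplotlib 3.10.9 was used.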

Additional observations from a re-analysis of the deposited data

How the results depend on the processing

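Across the alternatives run, the log2 ratio ranged from -1.44 to -1.26 for Vim, -1.50 to -1.16 for Flnc, 0.37 to 0.56 for Synm and 0.57 to 0.72 for Vcl. That of Flna ranged from -0.01 to 0.22. Taking the median over a gene's measured probe sets, Des moved to -0.33 and Nes to -1.61, since their probe sets disagree; under the other alternatives Des lay between -1.57 and -1.13. The count of probe sets at least 2-fold lower became 1 at a 4-fold threshold, and that of genes 0. With the limit at the 25th percentile, or with none, 1 probe set was at least 2-fold higher. A limit at the 75th percentile, which raises low signals further, brought the median log2 ratio of the sex-linked genes to -0.014. Loess moved the median of all measured genes from 0.09 to -0.02. Among partners, the lower count of filament linkers was 3 as reported and 5 without a limit. With the median over a gene's measured probe sets it was 2, and the list's median log2 ratio was -0.22 rather than -0.55. The lower count of vinculin partners was 1 as reported and 0 with quantile or loess scaling. The higher count of other intermediate filaments was 1 as reported and lay between 0 and 3. The partner, marker and sex-linked lists gave 260 other comparisons with an alternative. In 227 of these, counts stayed within 1.5 times or medians within the spread between probe sets. Many of them set a count of 0 beside another 0, so this share says little about how firm the lists are. No paired analysis was possible because each genotype has 1 array. Signal near the limit leaves the second Des probe set and the second Nes probe set as bounds, and no alternative stands in for a replicate.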
